A study of Mus musculus with 18 samples.

Results

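The interaction of strain and CpG asks whether CpG moved a gene's mRNA level by a different factor in bone marrow-derived macrophages (BMDMs) of SjSS mice than in those of B6 mice. It was computed for each gene as the log2 change from control to CpG in SjSS minus the log2 change from control to CpG in B6. The values came from 12 of the 18 sequenced samples, 3 in each of 4 groups, and the test covered 15789 of the 20615 genes in the table. SjSS is the C57BL/6.NOD-Aec1Aec2 mouse, which carries the NOD intervals Idd3 (Aec1) and Idd5 (Aec2) on the C57BL/6 (B6) background and is used as a model of Sjögren's syndrome, and B6 is the C57BL/6 strain itself. Mice of both strains were female and between 7 and 12 weeks old, and their marrow was cultured for 7 days with L929 supernatant as the source of M-CSF. Control BMDMs of each strain were left untreated, and CpG BMDMs of each strain received 1 µM CpG for 6 h. The study's text gives 3 mice for each strain and does not say whether a control and a CpG sample with the same number share a mouse, so p-values measure the spread between these samples. The remaining 6 samples, BMDMs of both strains given apoptotic cells (AC), entered the filter on low counts and the estimate of that spread, and their own interaction is given last.

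CpG oligonucleotides carry unmethylated CpG dinucleotides like those of bacterial DNA and are bound by TLR9, a receptor of endosomes that needs the transporter Unc93b1 to get there. TLR9 signals through the adaptor Myd88, and from there NF-kB and MAP kinases drive cytokine and chemokine genes, while IRF factors drive interferon genes. Secreted type I interferon acts back on the cells through its receptor and drives a large set of antiviral genes, many of which carry an interferon-stimulated response element (ISRE). A positive interaction below means a larger rise or a smaller fall with CpG in SjSS than in B6, and a negative interaction means a smaller rise or a larger fall.

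The estimated counts summed to between 30688336 and 57139662 per sample, with a median of 46258358 over the 12 control and CpG samples. The smallest was SjSS control replicate 2. The defining macrophage markers, among them Adgre1, Csf1r and Lyz2, were present in every sample. In B6 the 12 markers summed to 19770 to 20580 CPM (counts scaled to a common library total) in control and 25520 to 29690 in CpG samples. In SjSS the sum was lower in both states, at 16570 to 17520 CPM in control and 19460 to 21600 in CpG samples. Markers of other cells were low or moved with a group. The 10 measured neutrophil and progenitor markers summed to 198 to 202 CPM in B6 control, 339 to 373 in B6 CpG, 173 to 183 in SjSS control and 201 to 234 in SjSS CpG samples, and Ly6g, Mpo and Elane were not analysed here. Most of that sum was Csf3r, Mmp8 and Lcn2, which macrophages can express. The neutrophil genes S100a8 and Camp had group means of 3.60 and 0.0385 CPM in B6 control, 9.41 and 1.80 in B6 CpG, 2.78 and 0 in SjSS control and 4.68 and 0.986 in SjSS CpG samples, and S100a9 had group means between 0.0122 and 0.816 CPM. The 10 fibroblast markers summed to 53.7 to 158 CPM in B6 control, 50.4 to 122 in B6 CpG, 186 to 261 in SjSS control and 176 to 228 in SjSS CpG samples. The 7 B cell markers, mostly Blnk, summed to 97.5 to 113 CPM in B6 control, 136 to 141 in B6 CpG, 128 to 136 in SjSS control and 160 to 177 in SjSS CpG samples. The 11 dendritic cell markers, mostly Bst2, summed to 205 to 241, 301 to 353, 246 to 292 and 325 to 373 CPM in the same order, with Flt3 at group means of 0.0160 to 0.0906 CPM. T and NK cell, mast cell and erythroid markers each summed to at most 11.6 CPM in any of these samples. The part of these cells in the results below was not tested. In bulk samples, fewer cells that express a gene and less of its RNA per cell cannot be told apart.

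A gene was called when its interaction had an adjusted p under 0.05 (edgeR's quasi-likelihood test, Benjamini-Hochberg adjustment over all 15789 genes) and a size over 1.3 on the log2 scale. The call was higher for 45 genes (0.285% of those tested) and lower for 52 (0.329%). With the adjusted p alone, 510 genes (3.23%) were higher and 413 (2.62%) lower. The median interaction over all tested genes was 0.03, and TMM scaling of the libraries sets this centre near 0.

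By the sign of the fitted responses, most of the 97 called genes had the same direction in both strains and the larger response in B6. Among the 52 lower genes the CpG response was positive in both strains in 34, positive in B6 and negative in SjSS in 15, and negative in both in 3. Of these, 27 were called induced in both strains, where the background was 5.86% of tested genes induced in B6 and 4.81% in SjSS, and 10 were called induced in B6 without a call in SjSS. Among the 45 higher genes the response was negative in both strains in 23, negative in B6 and positive in SjSS in 13, and positive in both in 9. Of those, 16 were called repressed in both strains (background 6.88% in B6 and 4.45% in SjSS), 10 in B6 without a call in SjSS, and 7 were called induced in both. The B6 response was the larger in size in 39 of the 52 lower and in 30 of the 45 higher genes. Both responses enter the interaction, so these counts describe its make-up and are no second test of it. The backgrounds here count each strain alone, and the share called in both strains together is not given.

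**Figure D1:**
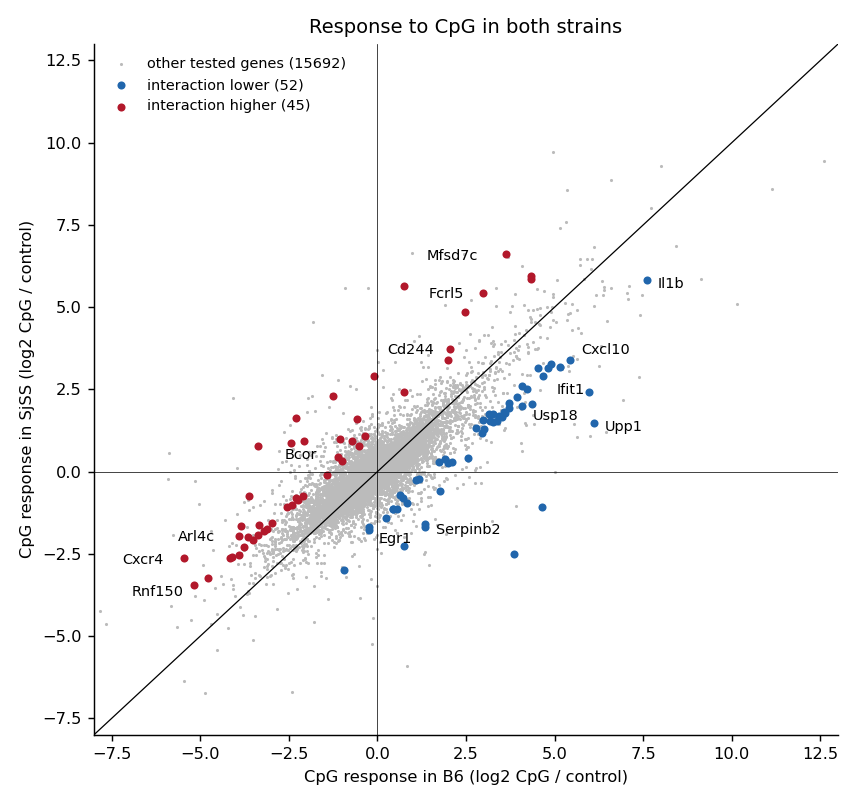
Response to CpG (log2 of CpG over control) in B6 on the x axis and in SjSS on the y axis for the 15789 tested genes. Blue points are the 52 genes with a lower interaction, red points the 45 with a higher interaction, grey points the other genes, and the diagonal marks equal responses; most blue points lie at positive and most red points at negative B6 responses.

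The 2 directions differed in where the strains stood apart. Of the 52 lower genes, 36 were higher in SjSS than in B6 in control samples at an adjusted p under 0.05 (background 9.04%) and 26 were lower in SjSS with CpG (9.57%). A gap at that threshold was found in control samples alone for 25 of them, with CpG alone for 13, in both with opposite sign for 11, in both with the same sign for 2 and in neither for 1. Of the 45 higher genes, 34 were higher in SjSS with CpG (10.2%) and 16 were lower in SjSS in control samples (10.6%). For these the gap was in control samples alone for 5, with CpG alone for 22, in both with opposite sign for 9, in both with the same sign for 5 and in neither for 4. By the fold threshold as well, 17 of the 52 were called higher in SjSS in control samples (background 1.3%) and 11 lower with CpG (0.792%), and 21 of the 45 were called higher with CpG (1.82%) and 8 lower in control samples (0.716%). The interaction was computed from these gaps, so the counts describe its make-up and are no second test of it.

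Interferon-stimulated genes formed a group among the lower genes. Of a list of 36 type I interferon-stimulated genes, all of which were tested, 8 were called lower against a background of 0.329% of all genes, none was called higher, and 18 were lower by adjusted p alone against a background of 2.62%. The interaction was negative for all 36, between -2.07 and -0.17, with a median of -0.71 against 0.03 over all tested genes. The median response of the list to CpG was 1.99 in B6 and 1.32 in SjSS, both on the log2 scale. The 8 called genes were *Usp18*, *Oasl1*, *Ifit1*, *Ifit3b*, *Cmpk2*, *Rsad2*, *Mx2* and *Ifit3*. The lists were drawn up with results of these data known, so the counts describe the list and are no independent evidence of its direction.

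*Usp18*, a protease that removes ISG15 from proteins and damps signalling from the type I interferon receptor, had the most negative interaction of the list, -2.07 ± 0.30 (adjusted p = 0.00038). *Usp18* read 4.68, 5.97 and 5.75 CPM in the B6 control samples and 70.4, 119.7 and 84.1 CPM with CpG, and 14.8, 17.4 and 15.5 CPM in the SjSS control samples and 63.5, 40.5 and 85.2 CPM with CpG. The SjSS control samples lay above all B6 control samples, while the CpG samples of the strains overlapped.

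*Ifit1*, an antiviral protein that binds foreign RNA, read 11.4, 9.93 and 8.67 CPM in B6 control, 200.3, 306 and 254 in B6 CpG, 20.96, 30.8 and 17.3 in SjSS control and 174, 105 and 234 in SjSS CpG samples. Its interaction was -1.76 ± 0.32 (adjusted p = 0.0028), from a response of 4.66 in B6 and 2.90 in SjSS. *Ifit3* and its neighbouring copy *Ifit3b* had interactions of -1.51 ± 0.33 (adjusted p = 0.011) and -1.71 ± 0.33 (adjusted p = 0.0039). These 2 genes are near-identical in sequence, so the estimated counts could be split between them, and each value is uncertain for that reason.

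*Oasl1*, a 2'-5'-oligoadenylate synthetase-like protein that represses translation of *Irf7*, read 5.09, 6.01 and 4.69 CPM in B6 control and 16.7, 21.6 and 16.04 CPM in SjSS control samples. With CpG it read 44.8, 81.2 and 61.2 CPM in B6 and 65.6, 39.3 and 83.2 CPM in SjSS, so the strains met at the same level, with means of 62.4 ± 18.2 and 62.7 ± 22.1 CPM (SD, n = 3). Its interaction was -1.77 ± 0.32 (adjusted p = 0.0026).

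*Rsad2* and *Cmpk2* are neighbours on chromosome 12 and encode viperin, which makes a chain-terminating nucleotide, and a mitochondrial nucleotide kinase. *Rsad2* read 26.8, 29.5 and 22.7 CPM in B6 control, 298, 504 and 414 in B6 CpG, 49.99, 75.3 and 35.9 in SjSS control and 291, 164 and 313 in SjSS CpG samples. The interactions were -1.68 ± 0.34 (adjusted p = 0.0053) for *Rsad2* and -1.71 ± 0.32 (adjusted p = 0.0032) for *Cmpk2*. The deposited annotation marks *Mx2*, a gene of the antiviral Mx GTPases, as a polymorphic pseudogene. *Mx2* rose from 1.51 ± 0.176 to 19.8 ± 4.19 CPM in B6 and from 2.64 ± 0.536 to 11.1 ± 3.72 CPM in SjSS (SD, n = 3), with an interaction of -1.64 ± 0.31 (adjusted p = 0.004).

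In control samples the 36 genes stood higher in SjSS. The SjSS control samples lay above all B6 control samples in 31 of the 36 (background 16.9% of tested genes), and 23 of the 36 were higher in SjSS at an adjusted p under 0.05 (background 9.04%). With CpG the samples of the strains overlapped in all 36 genes, where 17.6% of tested genes were apart with SjSS higher and 16.6% with SjSS lower. At an adjusted p under 0.05 none of the 36 was then higher in SjSS (background 10.2%) and 2 were lower (9.57%). The 36 genes also moved together within groups. B6 CpG replicate 1 was the lowest of its group in 36 of 36 genes, with a summed level of 4958 CPM against 7484 and 6226, and SjSS CpG replicate 2 was the lowest of its group in 35 of 36, with 4096 CPM against 5826 and 6800.

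Leaving out SjSS CpG replicate 2 left 7 of the list called lower and 13 lower by adjusted p, with a median of -0.57, and leaving out B6 CpG replicate 1 gave 11 and 20, with a median of -0.89. Over the 12 refits without 1 library each, between 7 and 11 were called lower and all 36 stayed negative. *Ifit3* came to -1.24 without SjSS CpG replicate 2, -1.22 without B6 CpG replicate 2 and -1.29 without SjSS control replicate 2, each under the threshold of 1.3 in size.

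**Figure D2:**
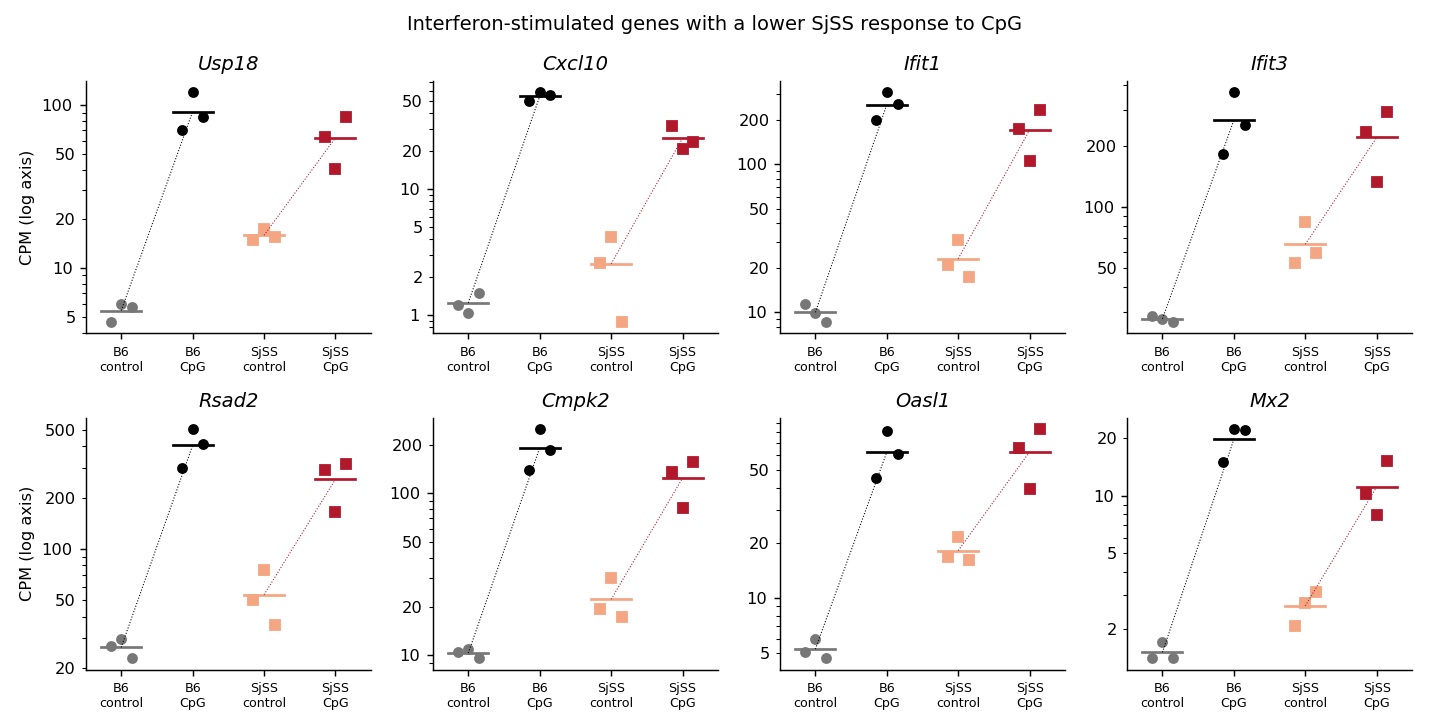
Level in CPM (log axis) of 8 interferon-stimulated genes in each of the 12 samples, 3 per group, with B6 as circles and SjSS as squares. Horizontal bars are group means and dotted lines join control to CpG within a strain; in 7 panels the SjSS control samples lie above the B6 control samples, and in Cxcl10 they overlap, while with CpG the strains overlap in all panels except Cxcl10.

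The promoters of *Ifit1*, *Rsad2* and the chemokine gene *Cxcl10*, also called lower, are shown as examples chosen among those that hold the ISRE core. They are the 250 bases before the transcription start in RefSeq's table for GRCm38.p6, which shares its coordinates with mm10, on the coding strand from 5′ to 3′, and the capitals mark the ISRE core GAAANNGAAA on either strand.
*Ifit1* chr19:34640639-34640888 (+): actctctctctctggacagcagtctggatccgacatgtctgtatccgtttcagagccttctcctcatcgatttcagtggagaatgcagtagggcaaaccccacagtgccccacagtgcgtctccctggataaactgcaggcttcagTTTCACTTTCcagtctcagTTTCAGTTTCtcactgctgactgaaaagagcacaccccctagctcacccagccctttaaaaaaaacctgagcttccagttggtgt
*Rsad2* chr12:26456453-26456702 (-): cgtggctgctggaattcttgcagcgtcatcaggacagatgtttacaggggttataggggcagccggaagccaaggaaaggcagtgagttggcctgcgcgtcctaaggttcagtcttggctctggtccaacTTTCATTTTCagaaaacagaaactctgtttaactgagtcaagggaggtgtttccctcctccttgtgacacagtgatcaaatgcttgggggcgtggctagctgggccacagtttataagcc
*Cxcl10* chr5:92348890-92349139 (-): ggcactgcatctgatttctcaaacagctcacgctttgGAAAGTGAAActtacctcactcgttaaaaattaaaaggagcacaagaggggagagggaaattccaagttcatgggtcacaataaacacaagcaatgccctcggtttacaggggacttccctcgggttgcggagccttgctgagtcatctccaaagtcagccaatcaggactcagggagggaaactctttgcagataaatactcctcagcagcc
The core was found in 48.1% of the 27 promoters of the list that the table holds (13 promoters), in 4 of the 6 that were called lower (not in *Oasl1* and *Cmpk2*), and in 2.78% of all 10388 promoters of tested genes. Of the called genes, 58 of 97 had a promoter in the table, 32 of the lower and 26 of the higher. The ISRE core was in 8 of the 32 lower promoters (25%) and in 2 of the 26 higher promoters (7.69%). The AP-1 consensus TGANTCA was in 9 of the 32 lower (28.1%), 3 of the 26 higher (11.5%) and 4.45% of all promoters, and the NF-kB consensus in 4 (12.5%), 1 (3.85%) and 4.44%. The CRE letters TGACGTCA were in 1 lower and no higher promoter (2.67% of all), and the PU.1 letters AGAGGAAGT in none of either (1% of all). The hypoxia response core was in 14 lower (43.8%) and 16 higher (61.5%) promoters and in 55.8% of all. Both strands were searched, none of the motifs holds the letters of another, and a match is a description of letters only.

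Other interferon-linked genes moved in the same direction. *Cxcl10*, the chemokine that draws CXCR3-bearing T cells, read 49.5, 58.3 and 55.7 CPM in B6 CpG and 31.4, 20.9 and 23.7 CPM in SjSS CpG samples, without overlap. In control samples it read 1.20, 1.04 and 1.51 CPM in B6 and 2.60, 4.17 and 0.888 CPM in SjSS, with overlap, and its interaction was -2.03 ± 0.41 (adjusted p = 0.0055). It was 1 of 2 genes of 14 tested CXC and CX3C chemokines below an adjusted p of 0.05 (background 2.62% lower and 3.23% higher). The other was *Cxcl3* at -1.06 ± 0.20 (adjusted p = 0.004).

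*Ifi203* and *Pydc3* are PYHIN family genes on distal chromosome 1, a family that includes sensors of DNA. *Ifi203* read 40.6, 43.3 and 41.5 CPM in B6 control and 88.6, 88.6 and 87.6 CPM in SjSS control samples, and it rose to 164.9, 195 and 178 CPM with CpG in B6. In SjSS with CpG it read 114, 75.8 and 135 CPM, a log2 change of 0.30 that did not pass the test (adjusted p = 0.072). Its interaction was -1.80 ± 0.19 (adjusted p = 2.3e-05). *Pydc3* was lower in SjSS in both states, at 1.09, 1.39 and 1.03 against 2.13, 2.02 and 2.06 CPM in control and 4.16, 2.10 and 4.61 against 15.2, 33.3 and 22.6 CPM with CpG, and its interaction was -1.85 ± 0.42 (adjusted p = 0.014). PYHIN genes resemble each other and differ between mouse strains, so reads could be assigned to a neighbour.

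Guanylate-binding proteins and immunity-related GTPases attack the vacuoles of intracellular pathogens. Of 17 tested, *Tgtp2* alone was called lower (background 0.329%), at -1.37 ± 0.32 (adjusted p = 0.016). *Irgm1* (-0.94), *Igtp* (-0.82), *Irgm2* (-0.82) and *Ifi47* (-0.79) were lower by adjusted p alone (background 2.62%). None of the 17 was higher by adjusted p (3.23%). *Tgtp2* came under the threshold in 3 of 12 refits without 1 library, to -1.12 without SjSS CpG replicate 2. Among 23 receptors, JAKs, STATs and IRFs, none was called in either direction, where 0.614% of all tested genes were. By adjusted p alone *Irf7* (-0.93), *Stat2* (-0.88), *Irf9* (-0.53) and *Tyk2* (-0.33) were lower (background 2.62%) and *Stat4* (0.72) and *Irf5* (0.61) higher (3.23%). *Ifnb1*, the gene of interferon beta, had 5 counts in B6 control, 15 in SjSS control, 8 in B6 CpG and 14 in SjSS CpG samples over 3 samples each, too few for a difference to be detectable at this depth.

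Among the other lower genes were *Il1b* and *Il1a*, the 2 called of 23 tested cytokines (background 0.329% lower and 0.285% higher). *Il1b*, the gene of the fever-inducing cytokine interleukin 1 beta, read 4.29, 4.36 and 7.14 CPM in B6 control and 1263, 1035 and 785 CPM in B6 CpG samples. In SjSS it read 1.33, 2.31 and 2.28 CPM in control and 109, 96.1 and 123 CPM in CpG samples, below every B6 sample in both states. Its response was 7.61 in B6 and 5.82 in SjSS, and its interaction -1.79 ± 0.34 (adjusted p = 0.0036). *Il1a*, its neighbour on chromosome 2 and the gene of interleukin 1 alpha, read 4.58, 7.51 and 7.34 CPM in B6 control, 173, 146 and 127 in B6 CpG, 3.32, 3.99 and 2.65 in SjSS control and 31.5, 24.6 and 31.2 in SjSS CpG samples. Its interaction, -1.37 ± 0.27 (adjusted p = 0.0046), stayed negative in all 12 refits without 1 library and came under 1.3 in size in 4 of them, to -1.17 without B6 control replicate 1, -1.24 without SjSS control replicate 2, -1.25 without B6 CpG replicate 1 and -1.26 without SjSS CpG replicate 2.

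*Ptgs2* encodes the inducible cyclooxygenase of prostaglandin synthesis. *Ptgs2* read 8.45, 5.38 and 8.38 CPM in the B6 control samples and 125, 78.8 and 65.95 CPM with CpG, and 10.7, 13.9 and 6.02 CPM in the SjSS control samples and 34.6, 30.98 and 37.4 CPM with CpG. The control samples of the strains overlapped and the CpG samples did not, and the interaction was -1.82 ± 0.35 (adjusted p = 0.0042). *Ptges*, the prostaglandin E synthase that acts after it, missed the fold threshold by a small margin at -1.297 ± 0.22 (adjusted p = 0.002), with means of 240.2 ± 46.3 CPM in B6 CpG and 99.9 ± 15.01 CPM in SjSS CpG samples (SD, n = 3). *Slc7a2*, a transporter that brings arginine into macrophages, rose from 8.28 ± 1.59 to 27.7 ± 7.98 CPM in B6. In SjSS it read 6.65 ± 0.930 CPM in control and 8.06 ± 1.47 CPM in CpG samples, a change that did not pass the test (log2 0.28, adjusted p = 0.24). Its interaction was -1.46 ± 0.26 (adjusted p = 0.0026), and without B6 CpG replicate 1 it was -1.21. The list of 15 nitric oxide, arginine, itaconate and prostaglandin genes held 2 called lower (background 0.329%) and none called higher (0.285%). Its median was -0.24 against 0.03 over all tested genes. By adjusted p alone 4 of the 15 were lower (background 2.62%) and 1 was higher (3.23%). *Cfb*, complement factor B of the alternative pathway, rose from 16.1 ± 5.15 to 273 ± 66.8 CPM in B6 and from 25.6 ± 0.794 to 155 ± 37.7 CPM in SjSS. Its interaction was -1.49 ± 0.32 (adjusted p = 0.0082), and it came under the threshold without B6 control replicate 1 (-1.25) and without B6 CpG replicate 2 (-1.28).

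*Serpinb2*, plasminogen activator inhibitor 2, turned in opposite directions. *Serpinb2* read 5.27, 2.27 and 4.28 CPM in the B6 control samples and 10.9, 8.33 and 10.97 CPM with CpG, and 15.6, 20.6 and 13.1 CPM in the SjSS control samples and 5.87, 4.84 and 4.68 CPM with CpG. The strains did not overlap in either state, and their order was reversed. The response was 1.34 in B6 and -1.67 in SjSS, each past the test, and the interaction -3.01 ± 0.31 (adjusted p = 2.0e-05) was the most negative among called genes with a group mean of at least 5 CPM. *Egr1*, an immediate early transcription factor, read 13.9, 14.7 and 17.6 CPM in B6 control, 15.5, 14.2 and 9.63 in B6 CpG and 14.6, 14.6 and 12.9 in SjSS control samples, which overlapped. In SjSS CpG samples it fell to 5.02, 4.30 and 3.79 CPM, below all others, and its interaction was -1.45 ± 0.21 (adjusted p = 0.00046).

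*Gja1* encodes connexin 43, the gap junction protein. *Gja1* read 6.04, 5.07 and 4.97 CPM in the B6 control samples and 51.9, 41.1 and 31.1 CPM with CpG, and 5.36, 6.06 and 5.62 CPM in the SjSS control samples and 12.5, 10.5 and 15.7 CPM with CpG. Control samples of the strains overlapped, CpG samples did not, and the interaction was -1.76 ± 0.23 (adjusted p = 0.00016). *Rnd1*, a small GTPase that loosens the actin cytoskeleton, and *Adamts4*, a protease that cuts aggrecan, had interactions of -1.77 ± 0.32 (adjusted p = 0.0026) and -1.97 ± 0.33 (adjusted p = 0.0014). *Adamts4* rose from 0.394 ± 0.227 to 14.6 ± 0.853 CPM in B6 and from 0.906 ± 0.175 to 8.13 ± 0.908 CPM in SjSS.

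*Ak4*, a mitochondrial adenylate kinase induced in low oxygen, started higher in SjSS control samples (7.42, 10.3 and 10.8 CPM against 2.79, 2.77 and 2.70 in B6) and overlapped with B6 under CpG (33.6, 33.7 and 42.5 against 34.5, 35.5 and 37.4 CPM). Its interaction was -1.75 ± 0.24 (adjusted p = 0.00023). *Adm*, the gene of the vasodilator peptide adrenomedullin, rose to 24.9, 17.2 and 14.6 CPM in B6 and 6.25, 8.08 and 10.6 CPM in SjSS from 0.521 to 0.849 CPM in B6 and 0.888 to 0.976 CPM in SjSS control samples, with an interaction of -1.66 ± 0.33 (adjusted p = 0.0055).

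*Adm* was the only called member of 23 glycolysis and hypoxia-inducible genes (background 0.329% lower). By adjusted p alone 12 of the 23 were lower against 2.62% of all genes, with none higher. The interaction was negative in 21 of the 23, with a median of -0.38. The 12 included *Pfkl* (-0.92), *Hk2* (-0.84), *Ldha* (-0.69), *Pdk1* (-0.63) and *Tpi1* (-0.57), which encode enzymes of glycolysis or, for *Pdk1*, the kinase that shuts pyruvate out of the mitochondrial cycle. In control samples 10 of the 23 were higher (background 9.04%) and 2 lower (10.6%) in SjSS at an adjusted p under 0.05. Leaving out 1 library at a time left between 8 (without SjSS CpG replicate 1) and 12 of them lower by adjusted p.

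Of the 45 genes with a higher interaction, the 16 called repressed by CpG in both strains, less so in SjSS, come first. *Cxcr4*, the receptor of CXCL12 that holds leukocytes in the bone marrow, had an interaction of 2.82 ± 0.33 (adjusted p = 7.3e-05). It was the largest among those of the 16 with a group mean of at least 5 CPM. *Cxcr4* read 144, 159 and 154 CPM in the B6 control samples and 1.71, 4.47 and 4.39 CPM with CpG, and 329, 362 and 263 CPM in the SjSS control samples and 56.2, 65.8 and 31.4 CPM with CpG. SjSS lay above B6 in both states without overlap. The response was -5.46 in B6 and -2.64 in SjSS, and the strain difference was 1.06 in control and 3.88 with CpG. On the linear scale *Cxcr4* lost more in SjSS, by 118 CPM, so the sign of its interaction holds for factors of change only.

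*Arl4c* encodes a small GTPase of membrane traffic. *Arl4c* read 476, 489.7 and 478 CPM in the B6 control samples and 26.8, 31.7 and 38.1 CPM with CpG, and 613, 650.0 and 512 CPM in the SjSS control samples and 164, 189 and 106 CPM with CpG. Its interaction was 1.95 ± 0.21 (adjusted p = 2.5e-05). *Rgs2*, which shortens signals of G protein-coupled receptors, fell from 153 ± 5.53 to 8.50 ± 2.59 CPM in B6 and from 223 ± 26.2 to 36.3 ± 12.8 CPM in SjSS, with an interaction of 1.55 ± 0.28 (adjusted p = 0.0026). On the linear scale *Rgs2* also fell by 42.3 CPM more in SjSS. *Rnf150*, a membrane protein with a RING domain, read 5.62, 7.30 and 9.82 CPM in B6 CpG and 20.1, 20.7 and 15.99 CPM in SjSS CpG samples from 201 to 223 and 171 to 184 CPM in control, with an interaction of 1.55 ± 0.17 (adjusted p = 4.4e-05).

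Among genes of transcription regulators were *Sox4* (1.72 ± 0.32 (adjusted p = 0.0032)) and *Bcor* (1.54 ± 0.12 (adjusted p = 1.1e-06)). *Sox4*, an HMG box factor, fell from 37.7 ± 6.03 to 1.03 ± 0.327 CPM in B6 and from 23.1 ± 4.81 to 2.10 ± 0.725 CPM in SjSS. *Bcor*, the corepressor of BCL6, had opposite responses. *Bcor* read 128, 123 and 127 CPM in the B6 control samples and 63.2, 55.1 and 57.5 CPM with CpG, and 89.7, 84.4 and 70.99 CPM in the SjSS control samples and 116, 114 and 103 CPM with CpG. It fell in B6 (log2 -1.10, adjusted p = 1.9e-09) and rose in SjSS (log2 0.44, adjusted p = 0.00021), and the order of the strains reversed without overlap in either state.

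Among genes that fell in both strains, *Cytip*, which binds the integrin regulator cytohesin 1, had an interaction of 2.19 ± 0.35 (adjusted p = 0.0012), *Eepd1*, a protein with a nuclease fold, 1.71 ± 0.22 (adjusted p = 0.00014), and *Spsb1*, a substrate adaptor of a ubiquitin ligase, 1.68 ± 0.29 (adjusted p = 0.0021). *Eepd1* read 5.06, 7.06 and 7.93 CPM in B6 CpG and 20.6, 24.4 and 14.05 CPM in SjSS CpG samples. SjSS CpG replicate 3 was the lowest of its group for *Cxcr4*, *Arl4c*, *Rgs2*, *Cytip*, *Eepd1* and *Spsb1*, and without it 62 genes were called higher in place of 45. Without SjSS CpG replicate 1 the number was 30.

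**Figure D3:**
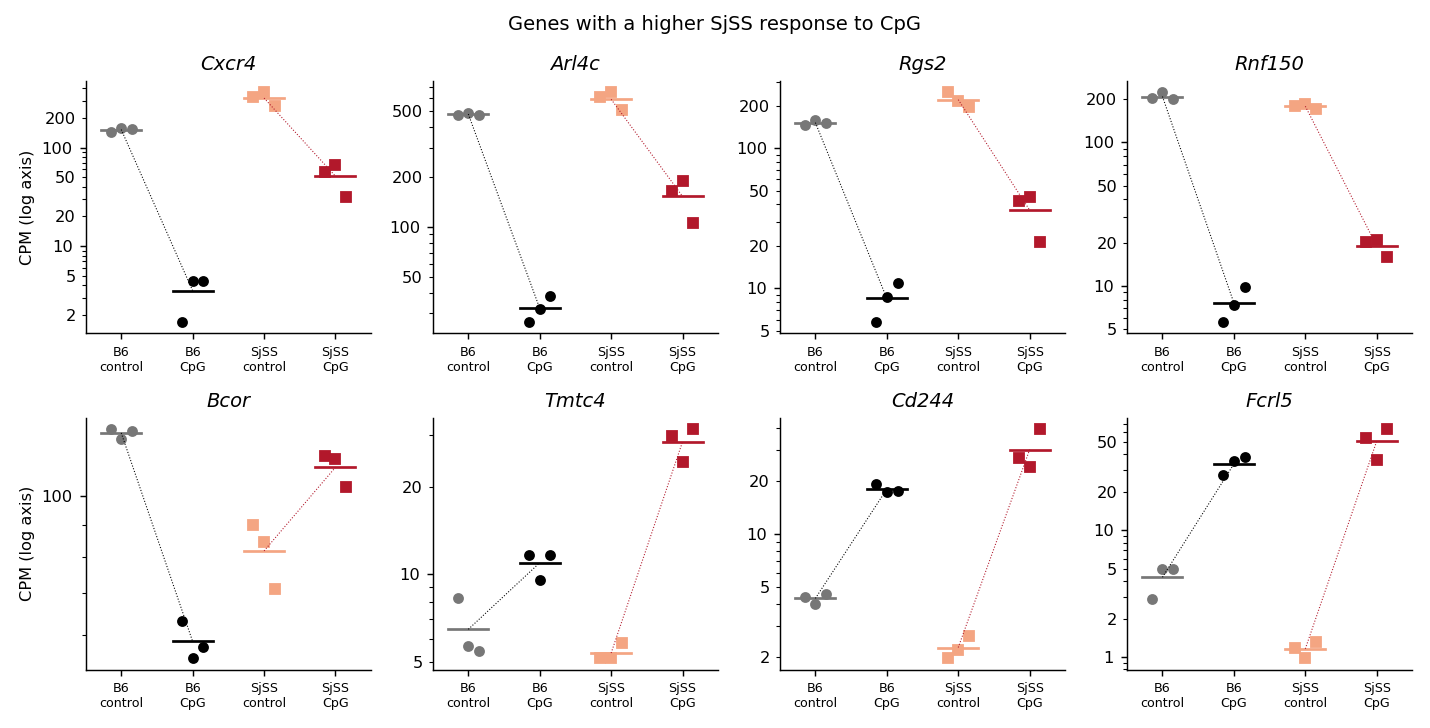
Level in CPM (log axis) of 8 genes with a higher interaction in each of the 12 samples, 3 per group, with B6 as circles and SjSS as squares. Horizontal bars are group means and dotted lines join control to CpG within a strain; the 4 genes of the upper row fell in both strains and less steeply in SjSS, Bcor turned in opposite directions, and Tmtc4, Cd244 and Fcrl5 rose more steeply in SjSS.

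A smaller set rose more in SjSS. *Fcrl5*, an Fc receptor-like protein known from B cells, read 2.88, 4.96 and 4.96 CPM in B6 control, 27.2, 35.1 and 38.3 in B6 CpG, 1.18, 0.976 and 1.32 in SjSS control and 53.6, 35.97 and 63.1 in SjSS CpG samples, with an interaction of 2.45 ± 0.36 (adjusted p = 0.00045). *Cd244*, the SLAM family receptor 2B4, crossed over, from 1.97, 2.19 and 2.65 CPM in SjSS control against 4.37, 4.03 and 4.55 in B6, to 27.03, 24.2 and 39.5 CPM in SjSS CpG against 19.2, 17.3 and 17.6 in B6. Its interaction was 1.67 ± 0.23 (adjusted p = 0.00025). *Tmtc4*, an enzyme that adds mannose to proteins, rose from 6.46 ± 1.58 to 10.9 ± 1.20 CPM in B6 and from 5.36 ± 0.370 to 28.5 ± 3.79 CPM in SjSS, with an interaction of 1.65 ± 0.23 (adjusted p = 0.00029).

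The B cell marker sum was higher in SjSS in control samples, where *Fcrl5* was lower, and higher in SjSS with CpG (160 to 177 against 136 to 141 CPM). Its part in *Fcrl5* and in *Spib*, given next, was not tested. *Spib*, *Mfsd7c* and *Ppm1n* rested on less stable calls. *Spib*, a factor of the ETS family, reached 1.43, 1.28 and 1.72 CPM in B6 CpG and 9.69, 6.57 and 8.75 CPM in SjSS CpG samples, without overlap. Its control samples read 0.112, 0.229 and 0.462 CPM in B6 and 0.166, 0.0592 and 0.562 CPM in SjSS. Its interaction was 2.39 ± 0.69 (adjusted p = 0.048), and the call was lost in 10 of the 12 refits without 1 library, with adjusted p up to 0.23 and a value down to 1.71 without B6 control replicate 3. *Mfsd7c*, a membrane transporter, rose from 0.173 ± 0.0807 to 2.23 ± 0.449 CPM in B6 and from 0.0684 ± 0.00807 to 7.02 ± 2.86 CPM in SjSS. Its interaction was 2.97 ± 0.67 (adjusted p = 0.012), with an adjusted p of 0.069 without B6 control replicate 1. *Ppm1n*, a phosphatase of the PP2C family, had an interaction of 1.63 ± 0.43 (adjusted p = 0.032), and the call was lost in 6 of the 12 refits. It was lower in SjSS than in B6 in both states, with 8.32, 9.78 and 10.8 CPM in SjSS CpG and 19.2, 21.1 and 18.9 in B6 CpG samples, and on the linear scale its response in SjSS minus that in B6 was -9.24 CPM.

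*Cish* and *Socs2*, inhibitors of cytokine receptor signalling that STAT5 induces, were the 2 called among 23 tested feedback inhibitors (background 0.285% higher and 0.329% lower). By adjusted p alone 2 of the 23 were higher (background 3.23%) and 2 lower (2.62%). *Cish* read 3.71, 3.78 and 3.48 CPM in B6 control and 1.05, 1.36 and 1.65 CPM in B6 CpG samples, against 2.34, 2.66 and 1.96 and 2.20, 2.45 and 1.83 CPM in SjSS. Its interaction was 1.34 ± 0.30 (adjusted p = 0.012), and it came under the threshold without SjSS control replicate 3 (1.23), without B6 CpG replicate 1 (1.18) and without SjSS CpG replicate 2 (1.25). *Socs2* had an interaction of 1.40 ± 0.39 (adjusted p = 0.043), and its call was lost in 7 of the 12 refits. *Socs1* and *Socs3*, which restrain interferon and IL-6 signalling, had interactions of -0.45 ± 0.26 (adjusted p = 0.34) and 0.05 ± 0.20 (adjusted p = 0.93). *Cd274* (-0.71), the ligand PD-L1, and *Zfp36* (-0.69), which destabilizes cytokine mRNAs, were lower by adjusted p alone.

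The receptor of CpG and its pathway held no called gene in either direction among 25 tested (background 0.285% higher and 0.329% lower), and 4 were higher and 2 lower by adjusted p alone (background 3.23% and 2.62%). *Tlr9* itself overlapped between strains in control samples and fell with CpG in both. *Tlr9* read 37.1, 37.1 and 38.8 CPM in the B6 control samples and 7.88, 10.7 and 12.8 CPM with CpG, and 38.2, 35.3 and 35.8 CPM in the SjSS control samples and 21.4, 19.9 and 18.04 CPM with CpG. It fell less in SjSS, with CpG samples of the strains apart, and its interaction was 0.97 ± 0.18 (adjusted p = 0.0027). *Traf3* (0.73 ± 0.10 (adjusted p = 0.00036)), an adaptor for interferon induction, *Irf5* (0.61 ± 0.07 (adjusted p = 7.5e-05)), a factor for inflammatory cytokines, and *Tlr13* (0.55 ± 0.12 (adjusted p = 0.01)), a receptor of bacterial RNA, were also higher. *Irf7* and *Irak2* (-0.46 ± 0.10 (adjusted p = 0.0073)) were lower. *Tlr7*, *Unc93b1* and *Myd88* had interactions of 0.19 ± 0.15 (adjusted p = 0.52), -0.07 ± 0.07 (adjusted p = 0.62) and -0.16 ± 0.09 (adjusted p = 0.31).

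Several cytokines that CpG induced strongly had no called interaction. *Tnf* rose from 45.96 ± 0.492 to 956 ± 90.2 CPM in B6 and from 20.6 ± 5.77 to 615 ± 37.8 CPM in SjSS, and its interaction was 0.53 ± 0.19 (adjusted p = 0.11). *Il10*, the anti-inflammatory cytokine, reached 66.97 ± 6.52 CPM in B6 and 48.1 ± 10.1 CPM in SjSS, with an interaction of 0.36 ± 0.27 (adjusted p = 0.5). *Il6* had 18 counts in B6 control and 8 in SjSS control over 3 samples each, and read 26.5, 20.6 and 22.2 CPM in B6 CpG and 17.3, 12.4 and 15.3 CPM in SjSS CpG samples. *Il12b*, the p40 chain of interleukins 12 and 23, had 7 and 9 control counts and read 98.9, 102 and 97.9 CPM in B6 CpG and 29.8, 20.6 and 24.6 CPM in SjSS CpG samples. The CpG samples of *Il12b* were far apart, by -1.99 ± 0.14 (adjusted p = 1.5e-08), yet the few control counts left the interaction at -2.54 ± 1.07 (adjusted p = 0.18). *Nos2*, inducible nitric oxide synthase, likewise had 7 control counts in each strain and reached 4.68, 8.73 and 4.43 CPM in B6 and 2.65, 1.09 and 2.95 CPM in SjSS, with an interaction of -1.60 ± 1.53 (adjusted p = 0.61). *Csf3*, the gene of G-CSF, had no counts in the control samples of either strain, 2189 counts in B6 CpG and 238 in SjSS CpG samples, so its fitted interaction depends on the prior count and is not given, although it is 1 of the 7 tested colony-stimulating factor and receptor genes. Of 23 tested cytokines, 2 were called lower (*Il1a* and *Il1b*, background 0.329%) and none was called higher (0.285%). *Ebi3* (-0.34) was lower by adjusted p alone (background 2.62%).

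Among genes tied to macrophage activation and engulfment, *Ccl3*, a chemokine for monocytes, had an interaction of -0.58 ± 0.16 (adjusted p = 0.034), under the fold threshold. The costimulatory receptor *Cd40* and ligand *Cd86* had -0.33 ± 0.20 (adjusted p = 0.37) and 0.77 ± 0.24 (adjusted p = 0.064). *Axl* and *Mertk*, receptor kinases that bind bridging proteins on apoptotic cells, had -0.33 ± 0.16 (adjusted p = 0.26) and -0.33 ± 0.11 (adjusted p = 0.08), and *Tgfb1* 0.01 ± 0.07 (adjusted p = 0.94). Of 20 TAM receptor and efferocytosis genes none was called, where 0.614% of all tested genes were. By adjusted p alone *Abcg1* (1.00), *Abca1* (0.62) and *Dock1* (0.28) were higher (background 3.23%) and none was lower (2.62%).

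Across the 24 lists, which held 438 tested entries, medians ran from -0.79 for the guanylate-binding proteins and immunity-related GTPases to 0.11 for proteases and matrix. No gene was called in the lists of NF-kB subunits and inhibitors (15 tested), other pattern recognition receptors (19), CC chemokines (11), colony-stimulating factors and receptors (7), IL-1 family receptors and inflammasome (13), costimulation and adhesion (18), MHC class II presentation (10), sterol synthesis (19), cell cycle (24) or metallothionein, heme and antioxidant genes (18). Over all tested genes 0.614% were called, so no call in lists of 7 to 24 genes is near that share. Within these lists the largest shifts past an adjusted p of 0.05 were *Tlr2* (1.24 ± 0.15 (adjusted p = 7.9e-05)), *Ccnd1* (1.07 ± 0.10 (adjusted p = 2.9e-06)), *Cd83* (1.00 ± 0.27 (adjusted p = 0.034)) and *Nfkbie* (0.90 ± 0.15 (adjusted p = 0.0014)), all higher. *Tlr2*, the receptor of bacterial lipoproteins, rose from 267 ± 9.21 to 582.4 ± 24.5 CPM in B6 and from 133 ± 24.1 to 683 ± 63.1 CPM in SjSS. *Ccnd1*, cyclin D1, fell from 322 ± 17.5 to 74.3 ± 4.90 CPM in B6 and from 261 ± 8.94 to 127 ± 5.57 CPM in SjSS. The complement list held *Cd55* (1.21 ± 0.28 (adjusted p = 0.014)), a brake on complement, beside *Cfb*, and the protease list held *Mmp9* (-1.06) and *Mmp13* (-0.94), lower by adjusted p alone, and *Thbs1* (0.70), higher.

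**Figure D4:**
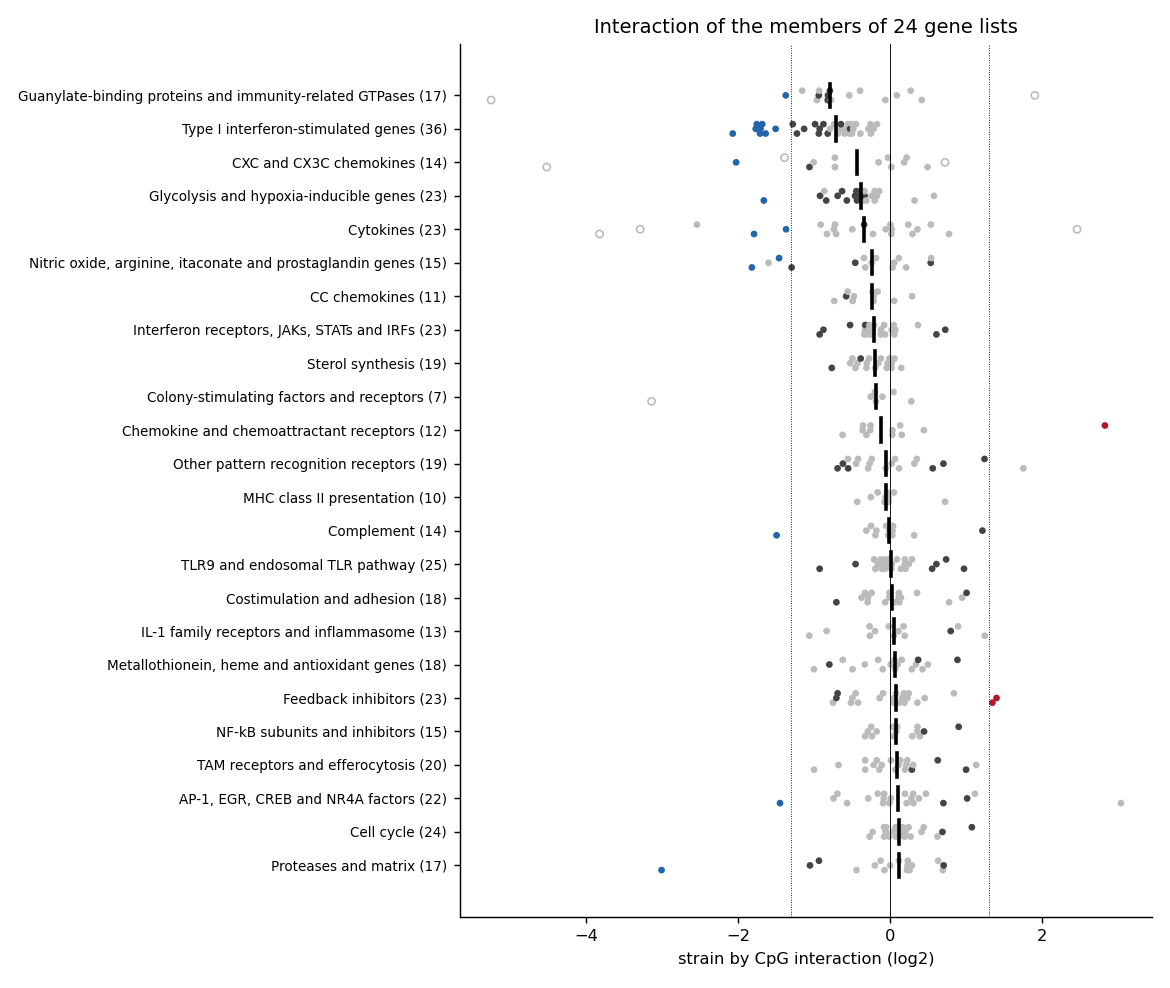
Interaction (log2) of each tested member of the 24 gene lists, with the number tested in parentheses. Blue and red points were called lower and higher, dark grey points passed an adjusted p of 0.05 alone, light grey points did not, the 9 open circles had 3 counts or fewer in a group, thick bars are medians and dotted lines mark 1.3 in size; all members of the type I interferon list lie below 0.

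The other called genes, named here after their values were seen, were of several kinds. Lower protein-coding genes were the interferon-linked *Ifit1bl1*, the enzymes *Upp1* and *Pnp2* of nucleoside breakdown, and *Ankrd37*, *Edn1*, *H2-M2*, *Ptpru*, *Fam65b*, *Mmp25*, *Nhsl1*, *Notch4*, *Wnt9a*, *Myh15*, *Tnnt2* and 4931422A03Rik. *Upp1*, uridine phosphorylase, read 4.64, 6.603 and 3.11 CPM in B6 CpG against 0.697, 0.519 and 0.936 CPM in SjSS CpG samples, from 0.0209 to 0.124 and 0.0921 to 0.680 CPM in control, with an interaction of -4.65 ± 0.85 (adjusted p = 0.0027). *Pnp2* read 9.25, 9.32 and 6.69 against 3.51, 3.88 and 4.64 CPM with CpG and had -1.47 ± 0.32 (adjusted p = 0.0099). The 14 lower genes not annotated as protein coding included, beside *Mx2*, ribosomal protein and other processed pseudogenes such as Rpl17-ps9, Gm1821, Gm11249 and Gm6807. Of these, *Gm1821* read 13.4, 17.9 and 15.01 CPM in SjSS control against 4.84 to 6.55 CPM in B6 control samples, and 7.29, 6.72 and 7.03 against 8.49, 8.63 and 8.11 CPM with CpG, with an interaction of -1.67 ± 0.16 (adjusted p = 5.6e-06). Pseudogenes share sequence with their parent genes, so their estimated counts are uncertain.

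Higher genes outside the rule were led by abundant genes that fell. *Bhlhe40*, a repressor in cytokine control, read 6.05, 6.87 and 8.08 CPM in B6 CpG and 11.7, 13.3 and 8.36 CPM in SjSS CpG samples, from 90.2 to 99.3 and 41.03 to 62.1 CPM in control, with 1.46 ± 0.21 (adjusted p = 0.00046). *Zdhhc14*, a palmitoyltransferase, overlapped in control samples (87.7 ± 1.83 and 89.1 ± 8.30 CPM) and fell to 5.87 ± 1.42 CPM in B6 and 15.3 ± 2.18 CPM in SjSS, with 1.36 ± 0.17 (adjusted p = 0.00013). *Rgs1* (1.49), *Eps8* (1.49), *Ier5l* (1.44) and *Fam46c* (1.42) fell in B6 as well. *Id2*, an inhibitor of helix-loop-helix factors, read 365, 391 and 345 CPM in B6 control and 170.5, 182 and 195 CPM in B6 CpG samples, against 286, 268 and 210.0 and 369, 322 and 259.7 CPM in SjSS, and had 1.32 ± 0.16 (adjusted p = 7.9e-05). The remaining higher genes were *Gfod1*, *N4bp3*, *Nrap*, *Dnah2*, *Vsig10*, *Tspan33*, *Hif3a*, *Slc1a3*, *Itga8*, *Dact1*, 9430076C15Rik and the noncoding or pseudogene entries *Rmrp*, *Gm19026*, *Gm28439* and *Gm10169*.

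Some calls rested on very few reads. The highest group mean was under 1 CPM in 5 of the 52 lower and 9 of the 45 higher genes, and at least 5 CPM in 35 and 26. *Tnnt2*, *Gm26635*, *Hoxb7*, *Gp9*, *Dlx5*, *Rdh9* and *Gm16541* belong to the first kind, and a group of 3 samples held 3 counts or fewer in 2 lower and 1 higher gene. Their fold changes depend on the prior count and are not given. Genes called antisense, *Gm20703*, *Gm16541* and *A530040E14Rik*, overlap a partner, and the strand setting of the counting is not given in the sources used here.

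By position, 14 of the 97 called genes lay on chromosome 1, which is 1.34% of its 1046 tested genes against 0.614% over all chromosomes, and 3 on chromosome 3 (0.361% of 831). Chromosome 19 held the same share, 1.34% of 523 genes, chromosome 12 held 0.978% of 511, and the lowest share was 0.181% of 552 on chromosome X. In 3 windows set from earlier results of these data, where strain differences in control samples are dense, the called genes were *Arl4c* and *A530040E14Rik* on chromosome 1 from 70 to 100 Mb (0.99% of 202 genes), *Adamts4*, *Cd244*, *Ifi203* and *Pydc3* in the 15 Mb of chromosome 1 that end at 180 Mb (2.63% of 152), and *Fcrl5*, *Fam46c* and *2010016I18Rik* on chromosome 3 from 30 to 110 Mb (0.526% of 570). Together the windows held 9 called genes (0.974% of 924), and the remaining genome held 88 (0.592% of 14865). The strain difference in control samples was called for 9.2% of genes in the windows and 1.57% outside them. In mm10, *Cd244* lies at chr1:171559193-171609747, *Ifi203* at chr1:173920407-173942673, *Pydc3* at chr1:173673675-173698393 and *Fcrl5* at chr3:87435773-87500679, by the coordinates of the deposited table.

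The same fit gives the interaction of strain and AC, which compares the response to apoptotic cells between the strains. It uses the same control samples as the interaction of strain and CpG, so the values are set side by side without a test of their relation. The interaction of strain and AC was called higher for 752 genes (4.76% of 15789) and lower for 437 (2.77%). Several genes with a lower interaction for CpG had a higher one for AC on the log2 scale, among them *Cxcl10* (3.74 with AC and -2.03 with CpG), *Cmpk2* (3.97 with AC and -1.71 with CpG), *Rsad2* (3.47 with AC and -1.68 with CpG), *Ifit1* (2.96 with AC and -1.76 with CpG), *Slc7a2* (3.19 with AC and -1.46 with CpG), *Il1a* (3.05 with AC and -1.37 with CpG) and *Il1b* (2.76 with AC and -1.79 with CpG). *Ak4* (-0.80 with AC) and *Adm* (-0.29 with AC, adjusted p = 0.57) did not share this. *Cxcr4*, the chemokine receptor with a higher interaction for CpG, had -0.96 ± 0.29 with AC (adjusted p = 0.014), and *Bcor* 0.26 ± 0.12 (adjusted p = 0.1). *Cish* and *Tlr9* were higher for both, at 2.19 and 1.55 with AC. These examples were chosen after their values were seen.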

How the data were processed

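RNA of 18 BMDM samples was sequenced, and 12 of them carry the interaction. The authors aligned reads to mm10 with STAR and used Partek's E/M method for quantification. What they deposited are estimated counts per gene without normalization. The submitters' processing notes also list DESeq2, and comparisons made with it were not in the table used here. Of the values, 41.1% were not whole (tolerance 1e-06), so the estimated counts were rounded for testing, and the lowest total of a gene over all samples was 10.

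The tests ran in edgeR 4.0.16 under R 4.3.3, with DESeq2 1.42.0 and limma 3.58.1 as alternatives. Genes were kept by filterByExpr, libraries scaled by TMM, and a quasi-likelihood model with a mean for each of 6 groups fitted to the 18 samples, with 12 residual degrees of freedom. The interaction was tested over 15789 genes with Benjamini-Hochberg adjustment. The thresholds, an adjusted p of 0.05 and 1.3 on the log2 scale, follow the study's methods. Standard errors were derived as |log2 value| over the root of edgeR's F. CPM used TMM-scaled totals and are given per sample or as mean ± SD (n = 3). No 2 samples of a group held the same counts. Depth limits genes with few counts, and p-values cover these samples only. The pipeline was tested on simulated counts. Promoters came from RefSeq's GRCm38.p6 table, searched with Python 3.11.15.

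Named genes were the 15 largest called interactions in each direction among genes with a group mean of at least 5 CPM, without unnamed gene models and pseudogenes, every called member of 24 gene lists, 19 genes named by the study or of the CpG receptor pathway, and up to 4 examples per list. The members and lists were chosen with earlier results of these data known. Alternatives were other normalizations, tests, filters, thresholds and scales, 12 samples in place of 18, replicate blocks, and each of the 12 samples left out in turn.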

Additional observations from a re-analysis of the deposited data

Results flagged for a closer look

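Both counts are listed here because the effect of CpG differed between the strains by a test of the difference itself, the interaction term of the edgeR fit. The response to CpG was larger or less negative in SjSS than in B6 for 45 genes (0.285% of 15789) and smaller or more negative for 52 (0.329%).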

How the results depend on the processing

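All 97 called genes kept their direction in every refit in which they were tested, but not all kept their call. The call held for 93 with DESeq2's size factors, 77 with DESeq2's Wald test, 81 with limma-voom and 72 with the 12 samples alone. With 1 sample left out it held for 68 (without SjSS control replicate 3) to 86 (without SjSS CpG replicate 3). The counts of higher and lower genes were 41 and 57 with DESeq2's size factors, 36 and 57 with DESeq2's Wald test, 38 and 49 with limma-voom, 40 and 53 without a filter on low counts, 45 and 52 with at least 10 counts in 3 samples, and 35 and 39 with the 12 samples alone. They were 510 and 413 with no fold threshold, 83 and 84 with a log2 threshold of 1, 15 and 13 with a threshold of 2, and 34 and 27 with glmTreat against 0.5. Leaving out 1 sample at a time gave 30 to 62 higher and 44 to 65 lower genes. On the linear CPM scale the difference of responses had the opposite sign in 4 of the 97 called genes, *Cxcr4* (-118 CPM), *Rgs2* (-42.3 CPM), *Ppm1n* (-9.24 CPM) and *Tspan33* (-0.322 CPM), and for *Socs3* (-330.4 CPM), *Tnf* (-315 CPM), *Tgfb1* (-19.4 CPM), *Il10* (-18.01 CPM) and *Il6* (-8.02 CPM), which were not called. Among genes not called, *Tgfb1* changed sign with DESeq2's size factors (-0.0121) and Wald test (-0.0121), and with 1 sample left out *Tgfb1* ran from -0.0452 to 0.0492, *Socs3* from -0.0648 to 0.26 and *Il6* from -0.37 to 1.26. The cause was not tested. Same-numbered control and CpG samples of a strain deviated together with correlations of 0.0593 to 0.264, over 0.1 in 5 of 6. Different numbers gave -0.252 to 0.00702. These values are a hint from the data that numbers are shared within a strain. The study's text, which gives 3 mice for each strain, does not say so, and the main fit has no term for the mouse. With the replicate block within strain 51 genes were higher and 63 lower, and with the replicate block across strains 46 and 55. The counts of the 4 gene lists without each library and with DESeq2's size factors were added after seeing the data. Depth limits cytokine genes with few control counts, such as *Il12b*, *Il6* and *Nos2*.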
